A study of Mus musculus with 4 samples.

Results

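Repolarising potassium channels of the heart and their subunits, 10 genes in all, were followed through 4 heart arrays. They are the pore-forming genes Kcnd2, Kcnd3, Kcna5, Kcnq1, Kcnh2, Kcnj2, Kcnj3 and Kcnj11 and the accessory subunit genes Kcnip2 and Kcne1. The genes were chosen by symbol, as named channels of cardiac repolarisation, and each was read by 1 probe set on every array. All 10 of the 10 were found among the 19505 named genes, and all 10 were among the 9753 genes tested, those whose mean log2 value reached the median over genes (5.30). The Entrez Gene identifiers are 16509 for Kcne1, 16535 for Kcnq1, 80906 for Kcnip2, 16508 for Kcnd2, 56543 for Kcnd3, 16511 for Kcnh2, 16518 for Kcnj2, 16519 for Kcnj3, 16493 for Kcna5 and 16514 for Kcnj11.

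The mice were of the outbred strain ICR (Jcl:ICR), and at postnatal day 1 each received 5 µl of PBS or of a viral vector preparation carrying Tbx6, a T-box transcription factor of early mesoderm. Hearts were collected at day 7 or day 30 after the injection, which gives 4 groups (PBS at day 7, Tbx6 at day 7, PBS at day 30 and Tbx6 at day 30) with 1 Clariom S array each. The labels give an injection beneath the skin of the back, although other fields speak of the heart. The control received saline and no vector, and the sources used here do not say how many hearts or which sexes made up a sample, nor which promoter drove Tbx6.

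Potassium channels end the cardiac action potential by letting potassium leave the cell. In the mouse ventricle the fast transient outward current, carried by Kcnd2 and Kcnd3 pores with the calcium-binding subunit Kcnip2, does much of this work, together with the ultrarapid delayed rectifier made of Kcna5. Kcnq1 with Kcne1 forms the slow delayed rectifier and Kcnh2 the rapid one, both of which dominate in larger mammals. The inward rectifier Kcnj2 holds the resting potential, Kcnj3 with Kcnj5 answers vagal acetylcholine in the atria, and Kcnj11 with a sulphonylurea receptor opens when ATP runs low.

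The values are log2 expression values as deposited. The arrays had medians of 5.30 to 5.34 over all genes and, across the tested genes, Pearson correlations of 0.985 and 0.989 within a day and 0.935 to 0.941 between days, where genes are not independent replicates. A reading at or below the highest of the array's 23 background probe sets (5.77 to 6.05) is called at background. Cardiomyocyte markers were above background on every array for 8 of 8 genes, as were 7 of 7 atrial and 4 of 4 ventricular markers, while 7 of 7 skeletal muscle markers were at background throughout. Several cardiomyocyte markers stood near the highest value of the table, Pln at 19.83 on all 4 arrays, so this list cannot show small differences in muscle cell content. The PBS array of day 7 stood apart in non-heart markers: the club cell gene Scgb1a1 read 12.89 there and at most 4.43 on the others, and the brown fat gene Ucp1 read 11.92 against 5.69 to 8.34.

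**Figure D1:**
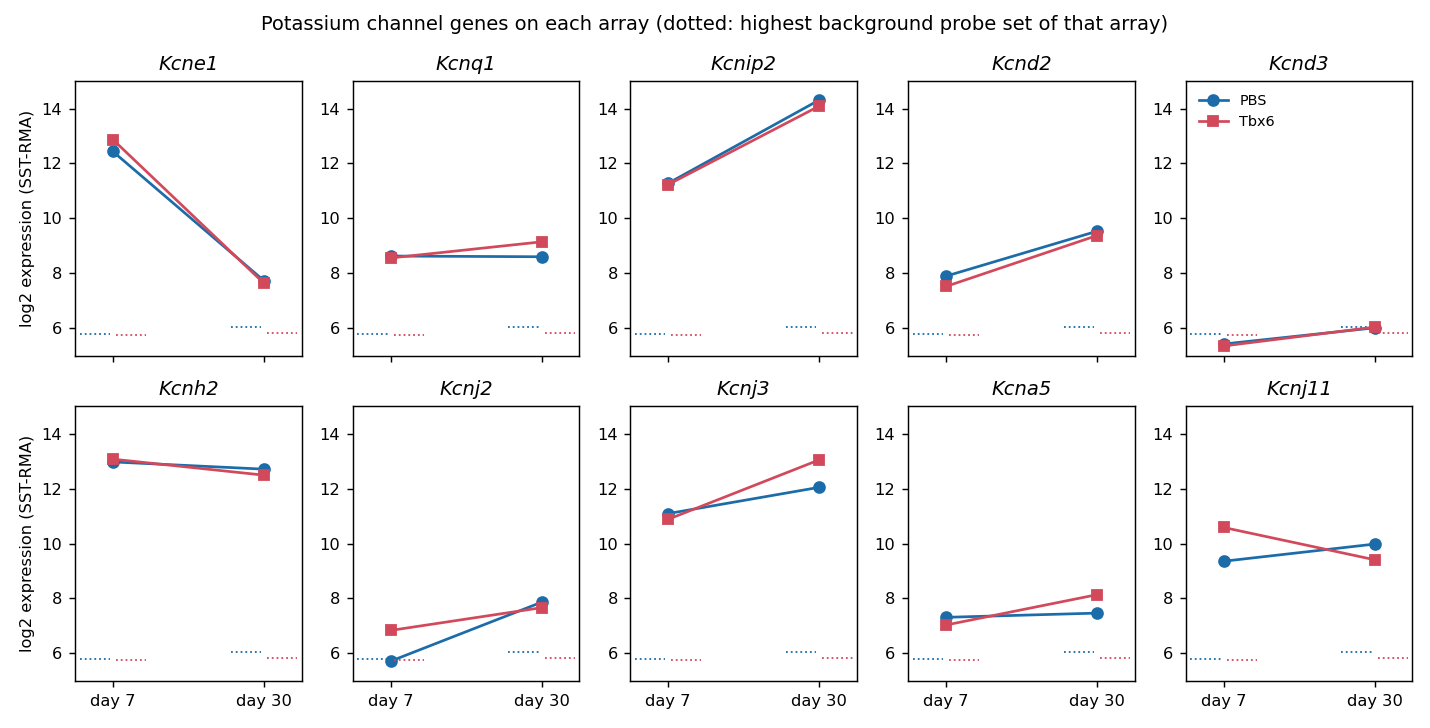
Readings of the 10 genes on the log2 scale (y axis) at day 7 and day 30 (x axis), with 1 array per point, PBS as circles and Tbx6 as squares; short dotted lines mark the highest background probe set of each array. Kcne1 drops from above 12 to below 8, Kcnip2 and Kcnd2 climb with nearly equal lines for both injections, the lines of Kcnj3 lie further apart at day 30, and those of Kcnj11 cross.

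Between day 7 and day 30 the transient outward current genes Kcnip2 and Kcnd2, the acetylcholine-gated channel gene Kcnj3 and the inward rectifier gene Kcnj2 rose, and the slow delayed rectifier subunit gene Kcne1 fell. The other 5 genes did not pass the test. It was a limma model with additive terms for day and injection, fitted to all 4 arrays, with Benjamini-Hochberg adjustment over the 9753 tested genes and a threshold of 0.05. By this rule 26.3% of all tested genes were called, 14.2% higher and 12.1% lower at day 30, against 5 of 10 channel genes, 4 higher and 1 lower. The median change was 0.63 for the channel genes and -0.02 for all tested genes, and the median size regardless of direction was 1.06 and 0.46 (log2). The arrays of day 7 and of day 30 did not overlap for 8 of the 10 genes, but the same held for 66.2% of all tested genes. The model leaves 1 residual degree of freedom, so its standard errors (SE) rest mainly on the spread borrowed from other genes. In RNA of whole hearts, fewer cells of a type and less RNA per cell cannot be told apart.

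**Figure D2:**
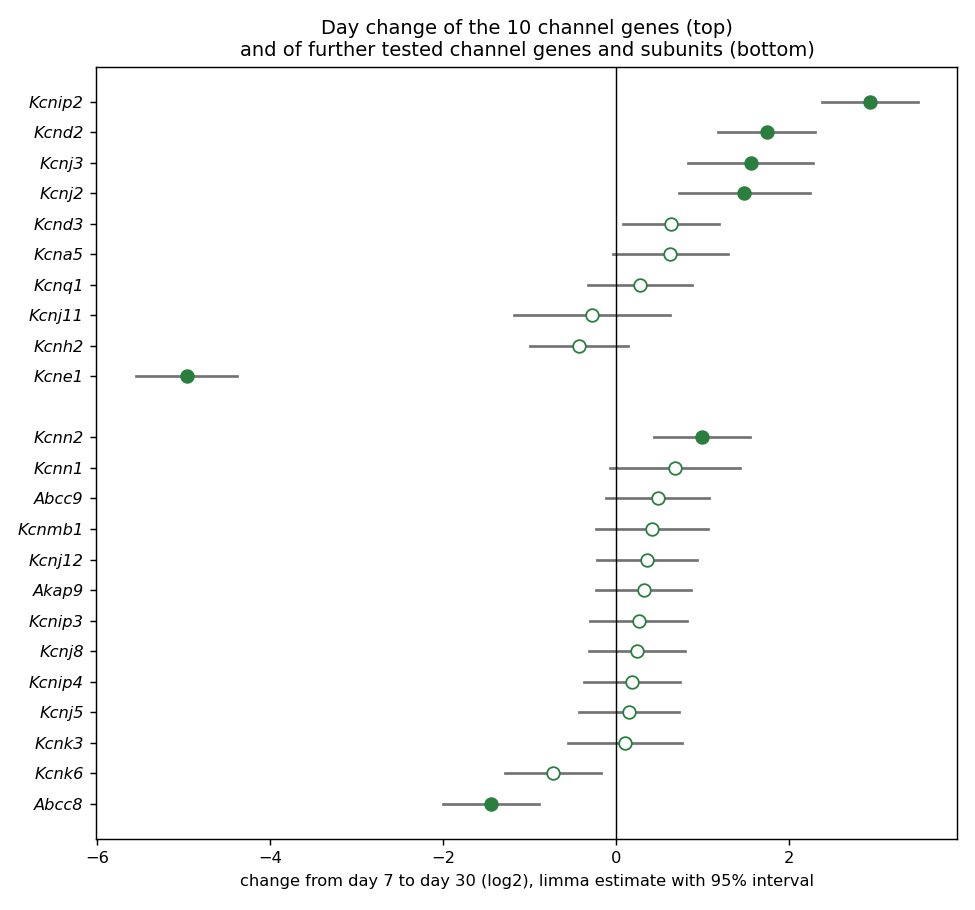
Change from day 7 to day 30 in log2 units (x axis) as the limma estimate with its 95% interval, for the 10 channel genes above and for 13 further tested channel and subunit genes below; filled points passed the adjusted threshold. Kcne1 lies near -5 and Kcnip2 near 3, and most of the further genes lie within 1 unit of no change.

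The sequence upstream of the RefSeq starts (build GRCm38.p6) was read, with a T-box half-site among the motifs because the vector carried a T-box factor. The 4 channel genes that rose between the days were also higher at day 30 on the PBS arrays, which had no vector. These differences were 3.03 for Kcnip2, 1.64 for Kcnd2, 0.96 for Kcnj3 and at least 2.07 for Kcnj2. Windows of 250 bases before the start were given for 7 of the 10 genes, all but Kcne1, Kcnq1 and Kcnj11, and 4 motifs were searched on both strands: AGGTGT as a T-box half-site, GGGCGG as the GC box, TATAAA as the TATA box and CACGTG as an E-box. These were present in 11.8%, 32.7%, 12.4% and 6.02% of all 32851 windows in that order. Among the channel genes a T-box half-site was found in Kcnj3 alone, 38 bases before the start, on the minus strand. An E-box was found in Kcnj2 alone, 84 bases before the start. GC boxes lay in Kcnip2, Kcnd2, Kcnh2 and Kcnj2, and a TATA box in 0 of the 7. The windows of Kcnd2 and Kcnj2, which rose, end at the outermost annotated start and are printed whole. Those of Kcnj3 and Kcnip2 end at a start other than the outermost annotated one. For these genes, 30 bases around the T-box half-site and around the GC box nearest the start are shown. Capitals mark the motif matches. A match of 6 letters describes the sequence and shows no binding.
Kcnd2, chr6:21215096-21215345, plus strand: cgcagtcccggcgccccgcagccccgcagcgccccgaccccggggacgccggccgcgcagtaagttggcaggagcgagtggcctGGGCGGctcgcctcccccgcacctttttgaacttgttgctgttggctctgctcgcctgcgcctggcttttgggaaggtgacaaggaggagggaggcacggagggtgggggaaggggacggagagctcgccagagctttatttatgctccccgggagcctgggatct
Kcnj2, chr11:111065914-111066163, plus strand: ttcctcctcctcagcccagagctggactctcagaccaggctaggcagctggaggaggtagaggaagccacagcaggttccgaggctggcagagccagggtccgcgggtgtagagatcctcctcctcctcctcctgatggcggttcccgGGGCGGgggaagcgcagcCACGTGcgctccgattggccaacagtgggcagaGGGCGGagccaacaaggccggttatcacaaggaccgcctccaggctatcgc
Kcnj3, chr2:55435920-55435949, plus strand: accagcacacacACACCTcattctggttgc
Kcnip2, chr19:45816064-45816093, minus strand: agccgcggggaggGGGCGGaggagaggcgg

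The GC content of the 250 bases was 68.8% in Kcnd2, 66.8% in Kcnip2, 65.6% in Kcnj2 and 58.4% in Kcnj3, against a median of 52.4% over all windows. Of the genes with a window that did not pass the test for day, Kcnh2 had 73.6%, Kcnd3 62.8% and Kcna5 53.2%. The most GC boxes, 3, lay in Kcnh2, whose window also ends at a start other than the outermost annotated one.

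Of the transient outward current genes, Kcnip2, the calcium sensor without which the Kcnd pores make little current in mouse ventricle, gave readings of 11.28 (PBS) and 11.23 (Tbx6) for day 7 and of 14.31 and 14.09 for day 30. Both day 30 arrays stood at least 2.81 above both day 7 arrays. It rose by 2.94 on the log2 scale (SE 0.24, n = 4 arrays), a 7.70-fold change with a limma adjusted p of 0.000136, and ranked 64 among the rises of all tested genes. Kcnd2, which encodes the pore Kv4.2, read 7.90 and 7.52 at day 7 and 9.54 and 9.38 at day 30, in the order PBS and Tbx6. It rose by 1.75 (SE 0.24), a 3.35-fold change (limma adjusted p = 0.00150), and its days were 1.48 apart. Kcnd3, the sister pore Kv4.3, read 5.43 and 5.36 at day 7 and 6.02 and 6.04 at day 30. Only its Tbx6 array of day 30 was above background. Its estimate of 0.64 (SE 0.24, limma adjusted p = 0.0861) became 0.26 once readings at background were raised to the array's limit, so its change was not measurable here.

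Kcne1, the small single-pass subunit that slows and enlarges the current of Kcnq1, gave readings of 12.44 (PBS) and 12.87 (Tbx6) for day 7 and of 7.73 and 7.64 for day 30. All 4 readings were above background, and the days were 4.71 apart. It fell by 4.97 (SE 0.26), a 31.3-fold change (limma adjusted p = 2.10e-05), the largest change among the 10 genes and number 8 among the falls of all tested genes. Its pore partner Kcnq1 read 8.63 and 8.56 at day 7 and 8.61 and 9.15 at day 30, so that the PBS arrays of the 2 days were nearly equal and the Tbx6 array of day 30 was highest. The estimate for Kcnq1 was 0.28 with a 95% interval of -0.32 to 0.88 (limma adjusted p = 0.468), which leaves out a fall of the size seen in Kcne1.

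Kcnh2, the pore of the rapid delayed rectifier, read 12.97 and 13.07 at day 7 and 12.71 and 12.49 at day 30. The days did not overlap, but the gap was 0.26, and the estimate of -0.42 (95% interval -0.99 to 0.14) did not pass the test (limma adjusted p = 0.244). Kcna5, the pore Kv1.5 of the ultrarapid delayed rectifier, read 7.31 and 7.03 at day 7 and 7.47 and 8.14 at day 30. Its estimate was 0.63 (95% interval -0.04 to 1.30, limma adjusted p = 0.147), with a difference between days of 0.15 after PBS and 1.11 after Tbx6.

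Among the inward rectifiers, Kcnj2 (Kir2.1) gave readings of 5.72 (PBS) and 6.84 (Tbx6) for day 7 and of 7.87 and 7.67 for day 30. The PBS reading of day 7 was at background, the other 3 were above it. Kcnj2 rose by 1.49 (SE 0.33), a 2.81-fold change (limma adjusted p = 0.0128). With day as the only term, Kcnj2 was called on all 4 arrays (limma adjusted p = 0.0235). In that model the estimate was 0.93 without the PBS array of day 7 (limma adjusted p = 0.0501), 1.39 without the PBS array of day 30 (0.0930) and 1.59 without the Tbx6 array of day 30 (0.0688), so the call was lost in these 3 fits. It was kept without the Tbx6 array of day 7 (2.05, limma adjusted p = 0.00164). The PBS array of day 7 is also the one with high Scgb1a1 and Ucp1, whose part in the low Kcnj2 reading was not tested.

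Kcnj3 (Kir3.1), a pore of the acetylcholine-gated current, read 11.09 and 10.88 at day 7 and 12.05 and 13.05 at day 30, in the order PBS and Tbx6. It rose by 1.56 (SE 0.32), a 2.95-fold change (limma adjusted p = 0.00902), with day differences of 0.96 after PBS and 2.16 after Tbx6. With day as the only term the limma adjusted p was 0.0157 on all 4 arrays. In that model, without the Tbx6 array of day 30, which held its highest reading, the estimate was 1.06 and the call was lost (limma adjusted p = 0.0610). Kcnj11 (Kir6.2), the pore of the ATP-sensitive channel, read 9.35 and 10.59 at day 7 and 9.98 and 9.41 at day 30. Its days overlapped, the differences between days ran in opposite directions (0.63 after PBS and -1.18 after Tbx6), and the estimate of -0.28 had a wide interval of -1.17 to 0.62 (limma adjusted p = 0.638).

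Taken by injection, 7 of the 10 genes differed at least 1.5-fold between the PBS arrays of the 2 days (6 higher at day 30, 1 lower), against 43.4% of all tested genes. Between the Tbx6 arrays 9 did (7 higher, 2 lower), against 44.1%. Kcnd3 is counted in both, although its PBS readings were both at background and its Tbx6 difference is at least 0.27 once bounded. Each of these is a difference between 1 array and 1 array, without a replicate check.

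A channel needs its subunits together, so the difference between the log2 values of partner genes was taken within each array. Since probe sets differ in brightness, only the change of this difference between days can be read. Kcne1 changed by -4.68 relative to Kcnq1 after PBS and by -5.82 after Tbx6. Kcnip2 gained 1.39 and 1.0 relative to Kcnd2, so the accessory gene moved further than the pore gene after both injections. Kcnj3 gained 0.60 and 2.22 relative to its partner Kcnj5, which read 11.19 and 11.42 at day 7 and 11.55 and 11.37 at day 30. Kcnj2 gained at least 1.49 after PBS, where its day 7 reading was at background, and 0.68 after Tbx6 relative to Kcnj12, a second inward rectifier of the resting potential. For these 4 pairs the arrays of the days did not overlap, but the same held for 66.2% of all tested genes taken singly. The share over other gene pairs was not computed. No test was made of these differences, and the pairs were chosen after the values had been seen.

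The ATP-sensitive channel pairs Kcnj11 with the sulphonylurea receptor Abcc8, which in mice serves the atria, or Abcc9, which serves the ventricles and vascular muscle. Abcc8 gave readings of 9.71 (PBS) and 9.68 (Tbx6) for day 7 and of 8.27 and 8.24 for day 30. It fell by 1.44 (SE 0.24, limma adjusted p = 0.00371), with nearly equal readings within each day. Of the 7 atrial markers 1 rose between the days (Sln, 0.87) and 1 fell (Myl7, -0.78), and their part in the fall of Abcc8 was not tested. Abcc9 read 14.63, 14.31, 14.83 and 15.08 in the same order and did not pass the test (estimate 0.49, limma adjusted p = 0.205). Relative to Abcc8, Abcc9 gained 1.65 after PBS and 2.21 after Tbx6. Kcnj11 changed by 2.07 and 0.27 relative to Abcc8, and by 0.42 and -1.95 relative to Abcc9, where the days overlapped.

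**Figure D3:**
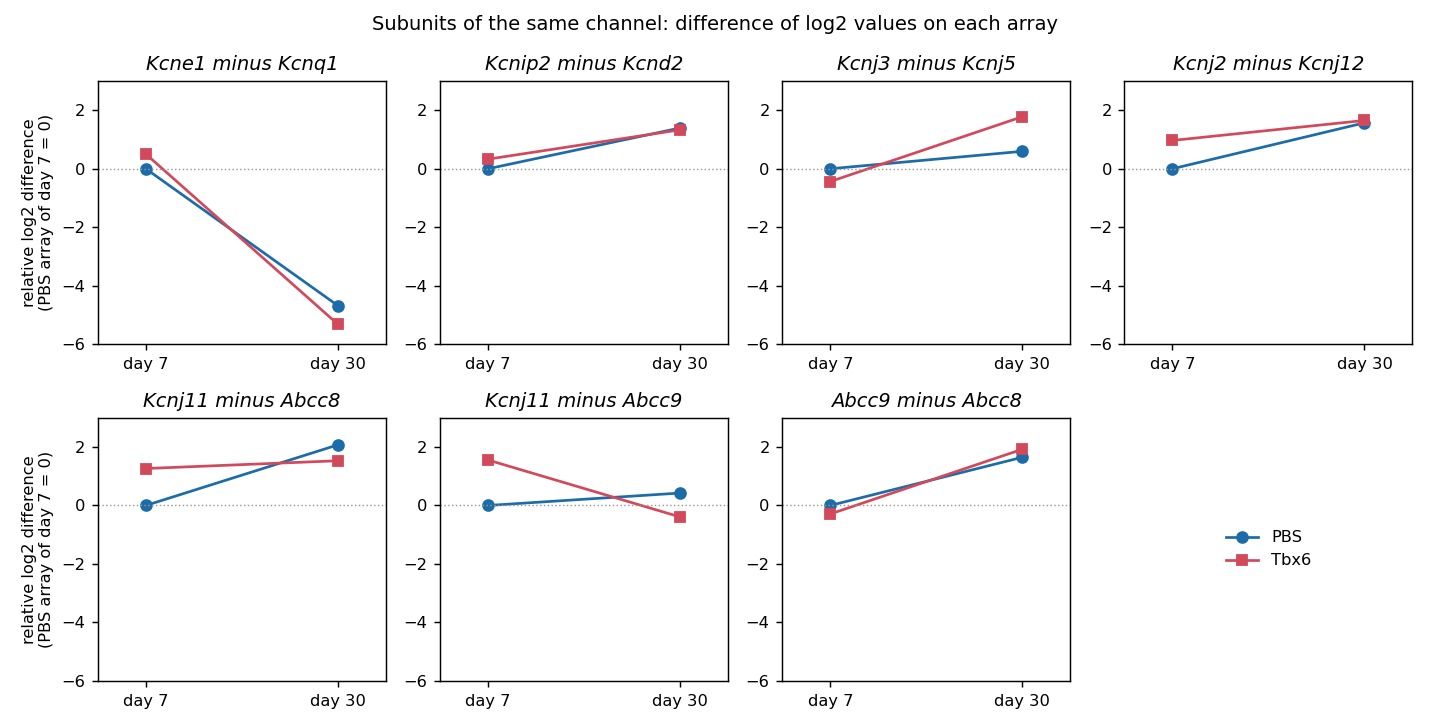
Difference of log2 values between 2 subunits on the same array, set to 0 on the PBS array of day 7 (y axis), at day 7 and day 30 (x axis), with 1 array per point. The Kcnj2 point at 0 rests on a reading at background. Kcne1 minus Kcnq1 drops to -4.68 after PBS and, from a higher start, by a change of -5.82 after Tbx6, Abcc9 minus Abcc8 climbs for both, and Kcnj11 minus Abcc9 goes opposite ways.

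Few other potassium channel genes were measurable. Of 34 further pore genes, 30 were on the array, 22 of these were at background on all 4 arrays, and 7 were tested. Of the 7, 1 rose, 0 fell and 6 did not pass. The gene that rose was Kcnn2, a calcium-activated channel of small conductance, which read 7.20 and 7.41 at day 7 and 8.17 and 8.42 at day 30 (change 1.0, SE 0.24, limma adjusted p = 0.0181). Among those that did not pass, the two-pore channel gene Kcnk6 had an estimate of -0.73 (limma adjusted p = 0.0577), with both day 30 readings at background. With readings at background raised to the limit, its estimate was -0.32 (limma adjusted p = 0.379). Kcna4, the pore of the slow transient outward current, was at background on every array. Of 18 accessory and regulatory subunits, 13 were at background on all arrays and 6 were tested, of which Abcc8 fell and 5 did not pass. Kcne2 and Kcne3, relatives of Kcne1, were among those at background. The median change was 0.25 over the 7 further pore genes and 0.29 over the 6 subunits. The 6 include Kcnip3 (estimate 0.26), which passed the filter for testing although at background on all 4 arrays.

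Regulators of these channels were read as a last list of 10, with 9 on the array and 8 tested. Klf15, a transcription factor known for its control of Kcnip2 over the day-night cycle, did not exceed background at day 7 (4.54 and 5.59) and gave 7.21 (PBS) and 8.08 (Tbx6) for day 30, differences of at least 1.41 and 2.31. It rose with an estimate of 2.58 (limma adjusted p = 0.000250), or 1.86 with readings at background raised to the limit. The part of Klf15 in the rise of Kcnip2 was not tested, and the sample details used here hold no time of day. Dlg1, a scaffold that anchors Kv channels, had an estimate of 0.79 at the edge of the threshold (limma adjusted p = 0.0503). The 6 others, Irx3, Irx4, Nedd4l, Cav3, Rnf207 and Caml, did not pass, with estimates from -0.48 to 0.38. Irx5, a repressor of Kcnd2 in mouse ventricle, was at background on all 4 arrays.

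The genes with the most similar course over the 4 arrays were sought among the 7884 tested genes above background on every array, by the Euclidean distance between log2 values centred on each gene's mean. Nearest to Kcne1 were Mest (distance 0.22) and Eln (0.36), followed by Igf2 (0.54), which encode an imprinted hydrolase-like protein, elastin and a fetal growth factor. Nearest to Kcnip2, the channel gene with the largest rise, were Slc2a4 (0.14), Pttg1 (0.19) and Scp2 (0.20), which encode the insulin-responsive glucose transporter, securin and a sterol carrier protein.

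Markers of other cell types also changed between the days. Of 5 tested fibroblast markers 4 fell, Col1a1 by 3.57, and of 6 endothelial markers 2 fell, Kdr by 1.03 and Cdh5 by 0.91, while 3 of 5 macrophage markers rose. Of 3 tested conduction system markers 1 fell, the T-type calcium channel gene Cacna1g (-2.41, limma adjusted p = 0.00454), and 4 of the 6 on the array were at background throughout. The list sum was 9.48 and 8.31 at day 7 and 7.99 and 7.77 at day 30. The only erythroid marker on the array, Alas2, fell by 2.09. The summed level of the endothelial list was 16.7 and 16.6 at day 7 and 15.7 and 15.8 at day 30, and that of the cardiomyocyte list 21.8 at day 7 and 21.9 at day 30 (log2 of the sum). For the fibroblast list the sum was 18.7 at day 7 and 18.4 at day 30 after both injections, although the median change of its tested markers was -2.98. Of 8 cardiomyocyte and 4 ventricular markers 0 passed for day in limma, also at an unadjusted p under 0.05. The part of these shifts in the channel genes' changes was not tested.

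The comparison of injections asked whether the hearts given the Tbx6 vector differed in channel expression from those given PBS. By limma's additive model 0 of the 10 genes and 0 of the 9753 tested genes (0%) passed for injection. The injection term averages the 2 days, so differences of opposite sign partly cancel in it and enlarge its SE. It can therefore miss an effect present at 1 day alone. At an unadjusted limma p under 0.05 there were 421 of the 9753 tested genes, a share below 0.05, and 0 channel genes. At that share, 0 of 10 does not set the channel genes apart from other genes. The lowest unadjusted limma p among the 10 was 0.201, for Kcnj2. The estimates ran from -0.27 for Kcnd2 to 0.46 for Kcnj2, and their 95% intervals reached from -0.83 to 1.23, so effects of up to about 1 log2 unit lie within them for several genes. The median estimate was 0.18 over the channel genes and -0.01 over all tested genes.

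Single days held larger differences. At day 7, 2 of the 10 genes were at least 1.5-fold higher after Tbx6 and 0 lower, against 15.6% of all tested genes in either direction. Kcnj11 was higher by 1.23 (2.35-fold), and Kcnj2 by at least 1.04, with its PBS reading at background. At day 30, 2 of 10 were higher and 0 lower, against 13.2% of all tested genes. These were Kcnj3 with 1.0 (2.0-fold) and Kcna5 with 0.67 (1.59-fold), followed by Kcnq1 with 0.54. Both shares are near those of all genes, and no gene was 1.5-fold higher on both days. Kcnip2 differed by -0.05 and -0.22, Kcnd2 by -0.38 and -0.16, Kcnh2 by 0.10 and -0.22 and Kcne1 by 0.43 and -0.09.

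**Figure D4:**
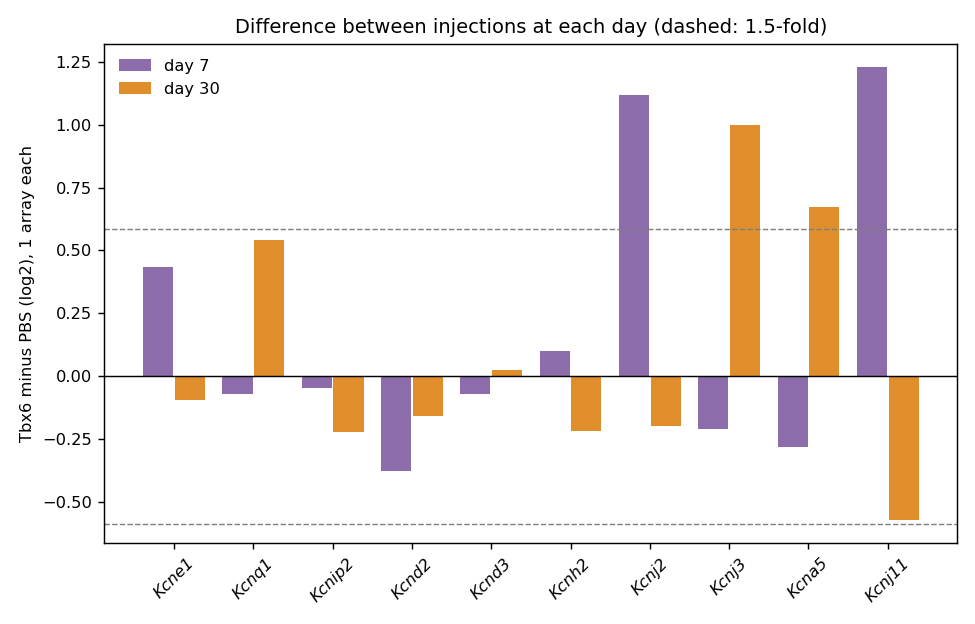
Tbx6 minus PBS in log2 units (y axis) for each channel gene (x axis) at day 7 and day 30, 1 array against 1 array, with dashed lines at 1.5-fold; both Kcnd3 bars and the PBS reading behind the day 7 bar of Kcnj2 involve readings at background. Kcnj2 and Kcnj11 pass the upper line at day 7 alone, Kcnj3 and Kcna5 at day 30 alone.

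Kcnj3 and Kcna5 are more abundant in atria than in ventricles of the mouse, and atrial markers were read beside them. At day 30, Stard10 was higher after Tbx6 by 0.73, Upk3b by 0.65, Myl7 by 0.61, Myl4 by 0.33 and Sln by 0.25, while Nppa differed by 0.01 near the ceiling and Bmp10 by -0.59. The list was higher for 6 of its 7 genes, with a median of 0.33. Its summed level, mostly Nppa, was 20.2 after PBS and 20.3 after Tbx6, and no marker was at background. At day 7 its median was 0.08. Kcnj5 and Abcc8, also described above as serving the atria, differed at day 30 by -0.18 and -0.03. Other lists differed at day 30 too: the adipocyte sum was 8.34 after PBS and 10.6 after Tbx6 (5 of 5 genes higher, median 2.02). Of these 5 adipocyte genes, 2 were at background on all 4 arrays and only 1 was above it on all 4. Macrophage markers were higher for 5 of 5 (median 0.57). The smooth muscle and pericyte sum was 17.6 after PBS and 16.9 after Tbx6, although 4 of its 6 genes were higher after Tbx6 (median 0.15). The part of these cell types in the day 30 differences of Kcnj3 and Kcna5 was not tested. Beside the day 7 differences of Kcnj2 and Kcnj11, the summed level of the lung epithelium list was 13.2 after PBS and 6.77 after Tbx6, with Scgb1a1, Scgb3a1 and Cyp2f2 above background after PBS alone, and Sftpc, Sftpa1 and Sftpb at background on both arrays. That of the adipocyte list was 12.1 and 8.50. Their part in the low PBS readings was not tested.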

How the data were processed

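Heart RNA of 4 groups, with 1 array in each, was labelled from 100 ng and hybridised to mouse Clariom S arrays of 1 colour, per the labels' protocols. The deposited log2 values were made by the authors with SST-RMA, per the series' design text, in Affymetrix Expression Console 1.4, per the submitters' processing notes. The sources used here do not name the log base, and the range of values was read as base 2. No further normalisation was applied.

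Of 28846 probe sets, 19572 carried 1 gene symbol in the platform annotation, 0 carried several and 2634 transcript probe sets were unnamed. Of a gene's probe sets (55 genes had several) the one with the highest mean was kept. Genes with a mean at or above the median were tested with lmFit and eBayes of limma 3.58.1 in R 4.3.3 (two-sided, Benjamini-Hochberg over 9753 genes), with injection and day as terms. Intervals used 8.46 degrees of freedom, of which 7.46 were borrowed from other genes. Since each group holds 1 array, a p-value sets a change against the spread between these arrays and other genes, with no measured spread between hearts of a group. Differences between single arrays have no test. "At least" marks a difference with 1 reading at background, computed with that reading set to the array's background limit.

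The channel genes, further gene lists and markers were chosen with earlier results of these data known. The naming rule took all 10 channel genes, up to 5 called genes per direction from the further lists, genes a sentence turns on if above background on 2 or more arrays, and the 3 most similar genes of Kcne1 and of Kcnip2. Genes named as at background (Kcna4, Kcne2, Kcne3, Kcnip3, Irx5) fall outside this rule and were chosen after their values were seen. Partner differences, motif searches and, for the limma fits, the alternative with raised readings were added after the values had been seen. Upstream sequences came from RefSeq tables (GRCm38.p6), which held 7 of the 10 genes. Alternatives were quantile normalisation, median centring, other filters, an intensity trend, mean probe sets, other models and leaving out each array. Motif and table work used Python 3.11.15, numpy 2.4.6, pandas 2.3.3 and scipy 1.17.1, and plots matplotlib 3.10.9. Simulated data were used to check the limma fit.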

Additional observations from a re-analysis of the deposited data

Results flagged for a closer look

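For 4 of the 10 channel genes the difference between Tbx6 and PBS had opposite signs at day 7 and day 30, with at least 1 of the differences reaching 1.5-fold. This held for 13.3% of all tested genes. With 1 array on each side, the difference between days was not tested in any of them. For Kcnj11 the Tbx6 minus PBS difference was 1.23 at day 7 and -0.57 at day 30, a shift of -1.80 (log2). For Kcnj2 the PBS reading of day 7 was at background, so the day 7 difference is known only as at least 1.04, against -0.20 at day 30. The shift was -1.32 on the values as deposited and -1.24 with that reading at the limit. For Kcnj3 it was -0.21 and 1.0, a shift of 1.21. For Kcna5 it was -0.28 and 0.67, a shift of 0.95.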

How the results depend on the processing

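Kcne1, Kcnip2 and Kcnd2 kept their direction and their call for day under all 8 other settings and all 4 fits that left out an array. Of the 8 settings, only quantile normalisation and median centring changed their estimates, and the others changed only the SE and adjusted p. Their estimates ran from -5.19 to -4.75, from 2.83 to 3.06 and from 1.56 to 1.93 over all these settings and fits. Kcnj3 and Kcnj2 kept theirs under the 8 and 7 other settings that tested them, but leaving out an array ended the call of Kcnj2 in 3 of 4 fits (estimates 0.93 to 2.05) and of Kcnj3 in 1 of 4 (1.06 to 2.06). The 5 other channel genes were called under none. The fits that left out an array had day as the only term, and with all 4 arrays that model called 2549 genes, 5 of them channel genes, against 2562 and 5 with the additive model. Leaving out an array gave 3 to 5 called channel genes and 1248 to 2067 called genes in all, with 1248 without the Tbx6 array and 1402 without the PBS array of day 30. These fits have fewer arrays, and a lone array is taken to vary like the pair of the other day. With readings at background raised to the limit, 2 tested genes and 0 channel genes passed for injection, against 0 on the values as deposited. For the limma fits this alternative was chosen after seeing the data. Under a 2-fold in place of a 1.5-fold rule, 1 channel gene in place of 2 differed between injections at day 30, 4 in place of 7 between the PBS arrays of the days and 6 in place of 9 between the Tbx6 arrays. Signal over background limits Kcnd3 on 3 arrays and Kcnj2 on 1.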
